A study of Mus musculus with 2 samples.

Results

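Dclk1, Adgrl3 and Shroom3 are 3 of the 27998 genes counted by single-nucleus RNA sequencing (snRNA-seq) of gastrocnemius and plantaris (GP) muscle, calf muscles of the mouse hindlimb. They were found by symbol and were chosen by measured values of these same libraries, namely their lower counts after deletion of Net39, so each difference between the libraries is given as a description and not as a finding. The question was which nuclei carried them in the control library: fibre nuclei of one myosin type, or nuclei of other cells. Shroom3 was lower in cKO fibre nuclei with a main myosin by more than counting error. Dclk1 and Adgrl3 were lower over all nuclei, whereas in fibre nuclei with a main myosin, pooled over the 4 myosins, a difference between the libraries was not detectable at this depth. In Myh1-main nuclei alone Dclk1 was higher in cKO, mostly through 1 nucleus.

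Net39, listed under the symbol Plpp7, encodes a protein of the muscle nuclear envelope. The control library (Ctrl) came from Net39 fl/fl mice without Cre, and the cKO library from HSA-CreERT2; Net39 fl/fl mice, in which the human skeletal actin promoter drives a tamoxifen-inducible Cre in skeletal muscle fibres. Both groups were male mice on the B6C3F1 background, received tamoxifen, and were studied 3 months after it at 5 months of age. Each library held nuclei of 3 pooled muscles with no map from barcode to animal, so there was 1 sample per group. The sample titles name a single mouse, and the labels and the study's methods give different releases of the droplet kit. Nuclei were sorted away from debris by DNA stain, with no gate for cell type. The actin promoter is known to be active in fibres and not in satellite cells, fibro-adipogenic progenitors (FAPs) or vessel cells.

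Dclk1 encodes doublecortin-like kinase 1, a microtubule-binding protein with a kinase domain. Adgrl3 encodes latrophilin 3, an adhesion G protein-coupled receptor at the cell surface that binds FLRT proteins and teneurins on neighbouring cells. Shroom3 encodes an actin-binding protein that is best known for apical constriction of epithelial cells. Adult fibre nuclei are commonly sorted by the myosin heavy chain they transcribe: Myh7 in slow fibres, and Myh2, Myh1 and Myh4 in fast fibres of increasing speed. FAPs are the fibroblast-like cells between fibres and make collagen.

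All 3 members are long genes on the forward strand of GRCm38 (GENCODE M21). Dclk1 (ENSMUSG00000027797) spans 297 kb of chromosome 3, from 55242364 to 55539068. Adgrl3 (ENSMUSG00000037605) spans 805 kb of chromosome 5, from 81020138 to 81825133, and Shroom3 (ENSMUSG00000029381) spans 282 kb of the same chromosome, from 92683435 to 92965318. RefSeq (GRCm38.p6) lists 7 promoter windows for them, each of 300 bases around a transcript start, with 2 for Dclk1, 3 for Adgrl3 and 2 for Shroom3. The windows below are shown because Dclk1 and Shroom3 have the same E-box letters at different starts, and because the members differ in base composition. Both Dclk1 windows are given, with 1 window each of Adgrl3 and Shroom3, and capitals mark each E-box (CANNTG), the motif bound by myogenic helix-loop-helix factors.

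Dclk1, chr3:55242114-55242413, forward strand: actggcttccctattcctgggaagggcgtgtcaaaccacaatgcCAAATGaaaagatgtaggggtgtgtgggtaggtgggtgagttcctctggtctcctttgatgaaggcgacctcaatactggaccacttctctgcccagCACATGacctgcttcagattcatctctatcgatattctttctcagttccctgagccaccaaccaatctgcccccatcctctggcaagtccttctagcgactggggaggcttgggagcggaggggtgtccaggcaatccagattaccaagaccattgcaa
Dclk1, chr3:55461478-55461777, forward strand, inside the gene: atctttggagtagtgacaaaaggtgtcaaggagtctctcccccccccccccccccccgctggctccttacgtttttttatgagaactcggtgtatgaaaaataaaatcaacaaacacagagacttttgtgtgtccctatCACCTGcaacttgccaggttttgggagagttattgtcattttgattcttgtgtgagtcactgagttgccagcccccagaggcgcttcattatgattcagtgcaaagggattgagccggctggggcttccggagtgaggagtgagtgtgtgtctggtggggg
Adgrl3, chr5:81020502-81020801, forward strand, inside the gene: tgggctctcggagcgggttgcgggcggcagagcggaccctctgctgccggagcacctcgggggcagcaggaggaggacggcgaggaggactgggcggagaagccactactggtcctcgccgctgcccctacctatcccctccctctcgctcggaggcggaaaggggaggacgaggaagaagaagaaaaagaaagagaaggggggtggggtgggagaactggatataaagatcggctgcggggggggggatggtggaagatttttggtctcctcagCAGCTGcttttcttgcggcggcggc
Shroom3, chr5:92809132-92809431, forward strand, inside the gene: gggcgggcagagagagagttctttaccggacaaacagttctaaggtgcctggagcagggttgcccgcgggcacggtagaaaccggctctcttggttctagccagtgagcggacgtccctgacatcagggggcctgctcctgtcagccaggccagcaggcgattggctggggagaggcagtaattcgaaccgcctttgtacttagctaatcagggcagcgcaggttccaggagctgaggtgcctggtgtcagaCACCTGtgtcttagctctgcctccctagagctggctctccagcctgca

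An E-box was found in 2 of 2 Dclk1 windows, 2 of 3 Adgrl3 windows and 2 of 2 Shroom3 windows, beside 72.3% of 32851 promoters of the same length. CACCTG is the E-box of the second Dclk1 window and of the Shroom3 window shown. The Sp1 site GGGCGG was in 3 of 3 Adgrl3 windows, 1 of 2 Shroom3 windows and 0 of 2 Dclk1 windows, beside 35.7% of promoters. CCAAT was in 2 of 2 Shroom3 windows, 1 of 2 Dclk1 windows and 0 of 3 Adgrl3 windows, beside 37.4%, and TATAAA was in 1 Adgrl3 window, beside 13.6%. The MEF2 core (3.69% of promoters), the glucocorticoid receptor motif AGAACA, a part of the full element (19%) and MEF3 TCAGGTT (4.07%) were in 0 of the 7 windows. All motifs were read on both strands, and a match is a description of the letters only. The Adgrl3 window shown is 64.7% G and C, the first Dclk1 window 52.7%, and the median promoter also 52.7%.

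The 3526 Ctrl and 3595 cKO nuclei used held 8965740 and 7244263 UMIs (unique molecular identifiers, 1 per captured RNA molecule), with medians of 2039.5 and 1612 per nucleus. Malat1 took 25.5% and 30.7% of them. A nucleus was called a myonucleus when it held too few markers of another cell type, and a myosin was its main one when it made up 60% or more of 3 or more UMIs of Myh7, Myh2, Myh1 and Myh4. Main Myh4 was found in 1906 Ctrl and 1452 cKO nuclei, main Myh1 in 300 and 388, main Myh2 in 163 and 325, and main Myh7 in 20 and 281. A further 117 and 217 myonuclei were mixed, and 517 and 731 held under 3 myosin UMIs and are called undetermined. FAP markers placed 314 Ctrl nuclei (8.91%) and 108 cKO nuclei (3.00%) in the FAP-marker class, where each of the 10 markers was higher than elsewhere in both libraries (Pdgfra 288 against 3.03 CPM in Ctrl, where CPM is the count in each 1000000 UMIs of a class). Plpp7 itself stood at 50.4 CPM in the myonuclei of Ctrl and 41.1 CPM in those of cKO (log2 ratio −0.29, 95% interval −0.52 to −0.07), and as the loxP sites flank the first exon while reads come from the 3′ end, this does not check the deletion. In Myh4-main nuclei Plpp7 was at 53.9 and 60.6 CPM (0.17, −0.11 to 0.44). The study itself reported the deletion by other means: PCR of the locus, bulk RNA sequencing and Western blot of cKO muscle.

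With 1 library per group there is no replicate check, and all intervals below are 95% intervals of counting error only, while the limit for a share of 0 is 3 nuclei with a UMI. The intervals are exact for levels, shares and ratios, and approximate for differences of shares and for the split by class. Over all nuclei, Dclk1 had 617 UMIs in 198 Ctrl nuclei (5.62%) and 137 UMIs in 81 cKO nuclei (2.25%), or 68.8 CPM (63.5 to 74.5) against 18.9 CPM (15.9 to 22.4), a log2 ratio of −1.86 (−2.14 to −1.59). Adgrl3 had 150 UMIs in 63 Ctrl nuclei and 35 UMIs in 33 cKO nuclei, 16.7 CPM (14.2 to 19.6) against 4.83 CPM (3.37 to 6.72), a log2 ratio of −1.79 (−2.37 to −1.25). Shroom3 had 121 UMIs in 99 Ctrl nuclei and 23 UMIs in 21 cKO nuclei, 13.5 CPM (11.2 to 16.1) against 3.17 CPM (2.01 to 4.76), a log2 ratio of −2.09 (−2.80 to −1.44). All 3 were at least 2-fold lower in cKO, as were 8.44% of the 12406 genes with at least 20 UMIs and 12.5% of the 974 such genes that span 200 kb or more. The choice of members used this contrast, so nothing is read from that count. Over these 12406 genes the median log2 ratio was −0.15.

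The members' UMIs were spread differently over the classes of nuclei. In Ctrl, myonuclei held 85.4% of all UMIs, and they held 84.3% of those of Shroom3, 30.0% of those of Adgrl3 and 23.3% of those of Dclk1. FAP-marker nuclei, with 7.97% of all Ctrl UMIs, held 44.1% of the Dclk1 UMIs and 18.0% of the Adgrl3 UMIs. The other non-fibre marker nuclei held 52.0% of the Adgrl3 UMIs and 32.6% of the Dclk1 UMIs. Shroom3 UMIs were split between myonuclei and non-fibre marker nuclei much as all UMIs were. Within the myonuclei, undetermined nuclei held 16.5% of the Shroom3 UMIs against 9.19% of all UMIs. In the other non-fibre nuclei, 3 nuclei carried 70 of the 78 Adgrl3 UMIs and 3 carried 197 of the 201 Dclk1 UMIs. Counted by nuclei, 37 of 63 Adgrl3-positive Ctrl nuclei (58.7%) and 55 of 198 Dclk1-positive ones (27.8%) were myonuclei. The other non-fibre class was also close to myonuclei in fibre transcripts, with Ttn at 34107 CPM and Myh4 at 1657 CPM in Ctrl, beside 44711 and 2139 CPM in myonuclei and 20290 and 967 CPM in FAP-marker nuclei. Its marker Abcc9 was at 257 CPM outside the smooth muscle class, and whether the nuclei that carried the counts were fibre nuclei was not tested. In cKO, myonuclei held 94.6% of all UMIs and 73.9%, 91.4% and 56.9% of those of Shroom3, Adgrl3 and Dclk1.

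**Figure D1:**
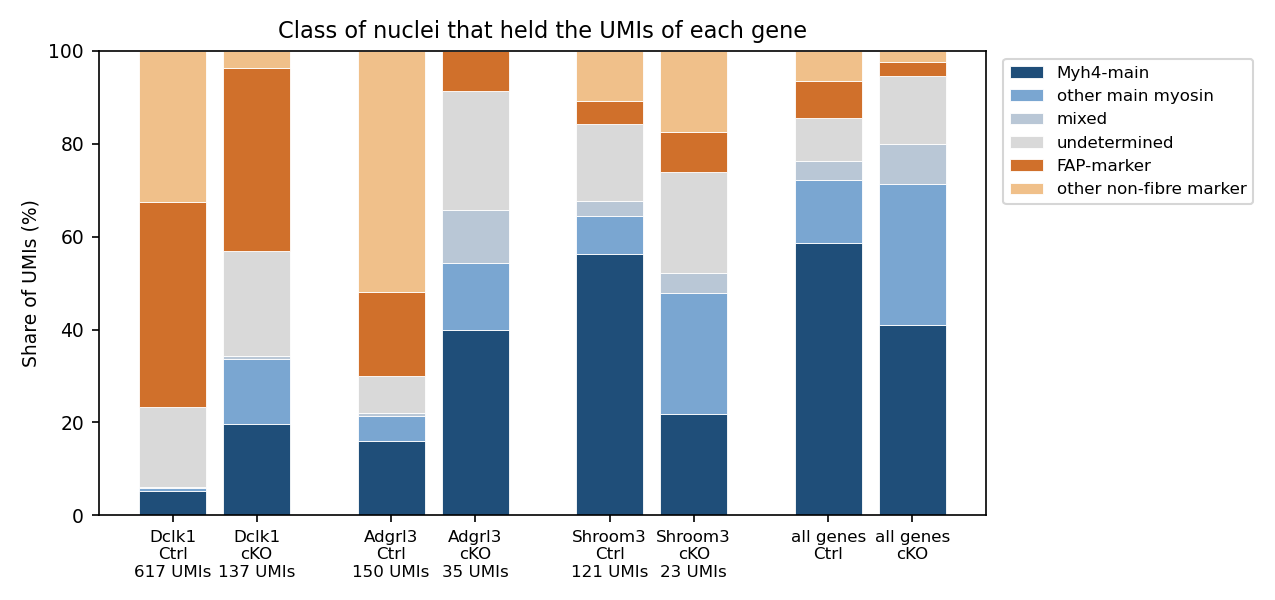
Share of each member's UMIs (percent, vertical axis) by class of nucleus in the Ctrl and cKO libraries, with all genes for comparison. In Ctrl, myonuclei as a whole hold 84.3% of Shroom3 against 85.4% of all genes, while FAP-marker nuclei hold 44.1% of Dclk1 and other non-fibre nuclei 52.0% of Adgrl3.

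Of the members, Shroom3 had the most UMIs in Ctrl nuclei with a main myosin, 78 against 37 of Dclk1 and 32 of Adgrl3. In Myh4-main nuclei it had 68 UMIs in Ctrl and 5 in cKO, or 12.9 CPM (10.1 to 16.4) and 1.68 CPM (0.547 to 3.93), which is 7.69-fold lower in cKO (3.14 to 24.4) and a log2 ratio of −2.94 (−4.61 to −1.65). The intervals of the libraries did not overlap. At least 1 UMI was found in 56 of 1906 Ctrl nuclei (2.94%, 2.23 to 3.80) and 5 of 1452 cKO nuclei (0.344%, 0.112 to 0.802), at median depths of 2284 and 1651 UMIs. When every nucleus was thinned to 500 UMIs, 10 Ctrl nuclei (0.525%) and 1 cKO nucleus (0.0689%) remained positive, a difference of −0.456 percentage points (−0.899 to −0.0397), so the share was lower at equal depth too. With main myosin set at 80% or more of 5 or more UMIs, that difference was −0.226 points (−0.658 to 0.174) and included 0. Among 9993 genes with at least 20 UMIs in these nuclei, 4.29% were at least 2-fold lower in cKO, Shroom3 among them, and 20 genes had a lower ratio.

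The other main myosin classes held few Shroom3 UMIs. Myh1-main nuclei had 7 in Ctrl and 4 in cKO, 9.04 CPM and 4.47 CPM (log2 ratio −1.02, −3.24 to 0.96). Myh2-main nuclei had 3 and 1, 7.49 CPM (1.54 to 21.9) and 1.45 CPM (0.0367 to 8.09). The 20 Myh7-main nuclei of Ctrl had 0, which allows up to 15.0% of them to hold a UMI, and the 281 of cKO had 1. Taken as one class, Myh7-, Myh2- and Myh1-main nuclei were at 8.22 CPM in Ctrl against 2.73 CPM in cKO, 10 against 6 UMIs (log2 ratio −1.59, −3.33 to 0.01). In Ctrl, Myh4-main nuclei were 1.58 times this level (0.806 to 3.43), so a preference of Shroom3 for Myh4-main nuclei was not detectable at this depth. Undetermined myonuclei were higher, at 24.3 CPM in Ctrl (20 UMIs) and 4.69 CPM in cKO (5 UMIs), a log2 ratio of −2.37 (−4.14 to −0.91). Mixed nuclei had 4 UMIs and 1 UMI, 10.9 CPM and 1.61 CPM.

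In all, Shroom3 was at 13.3 CPM (10.9 to 16.2) in Ctrl myonuclei against 2.48 CPM (1.44 to 3.97) in cKO myonuclei, a log2 ratio of −2.42 (−3.26 to −1.68). Positive myonuclei were 86 of 3023 (2.84%) and 16 of 3394 (0.471%). At least 2-fold lower in cKO myonuclei were 4.39% of 11511 genes and 3.57% of 924 genes of 200 kb or more, Shroom3 but neither Dclk1 nor Adgrl3 among them. Genes with a lower ratio numbered 38 for Shroom3, 1009 for Dclk1 and 2851 for Adgrl3. The choice of members used these nuclei too, and these ranks describe how far the 3 differ.

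The Ctrl library could not show that Shroom3 was a fibre transcript. Its level in Ctrl non-fibre marker nuclei was 14.6 CPM (8.77 to 22.7, 19 UMIs in 13 of 503 nuclei, 2.58%), against 13.3 CPM in myonuclei. In FAP-marker nuclei, with a median depth of 1482.5 UMIs, 6 of 314 were positive (1.91%, 0.704 to 4.11) and the level was 0.631 times that of myonuclei (0.226 to 1.42). This interval holds both 1 and 0.452, the same ratio for Myh4 (967 against 2139 CPM), a fibre myosin that FAPs are not known to use. Free RNA of broken fibres can give a nucleus UMIs of a gene it does not transcribe, and its part in the Shroom3 counts was not tested. After thinning, 0.525% of Myh4-main nuclei and 0.955% of FAP-marker nuclei held Shroom3. In cKO the non-fibre level was 15.4 CPM (6 UMIs), against 2.48 CPM in cKO myonuclei. Between the libraries the log2 ratio in non-fibre marker nuclei was 0.08 (−1.53 to 1.46). Adipocyte-marker nuclei were rare but held 5 UMIs in 1 of 7 Ctrl nuclei and 3 UMIs in 2 of 6 cKO nuclei.

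**Figure D2:**
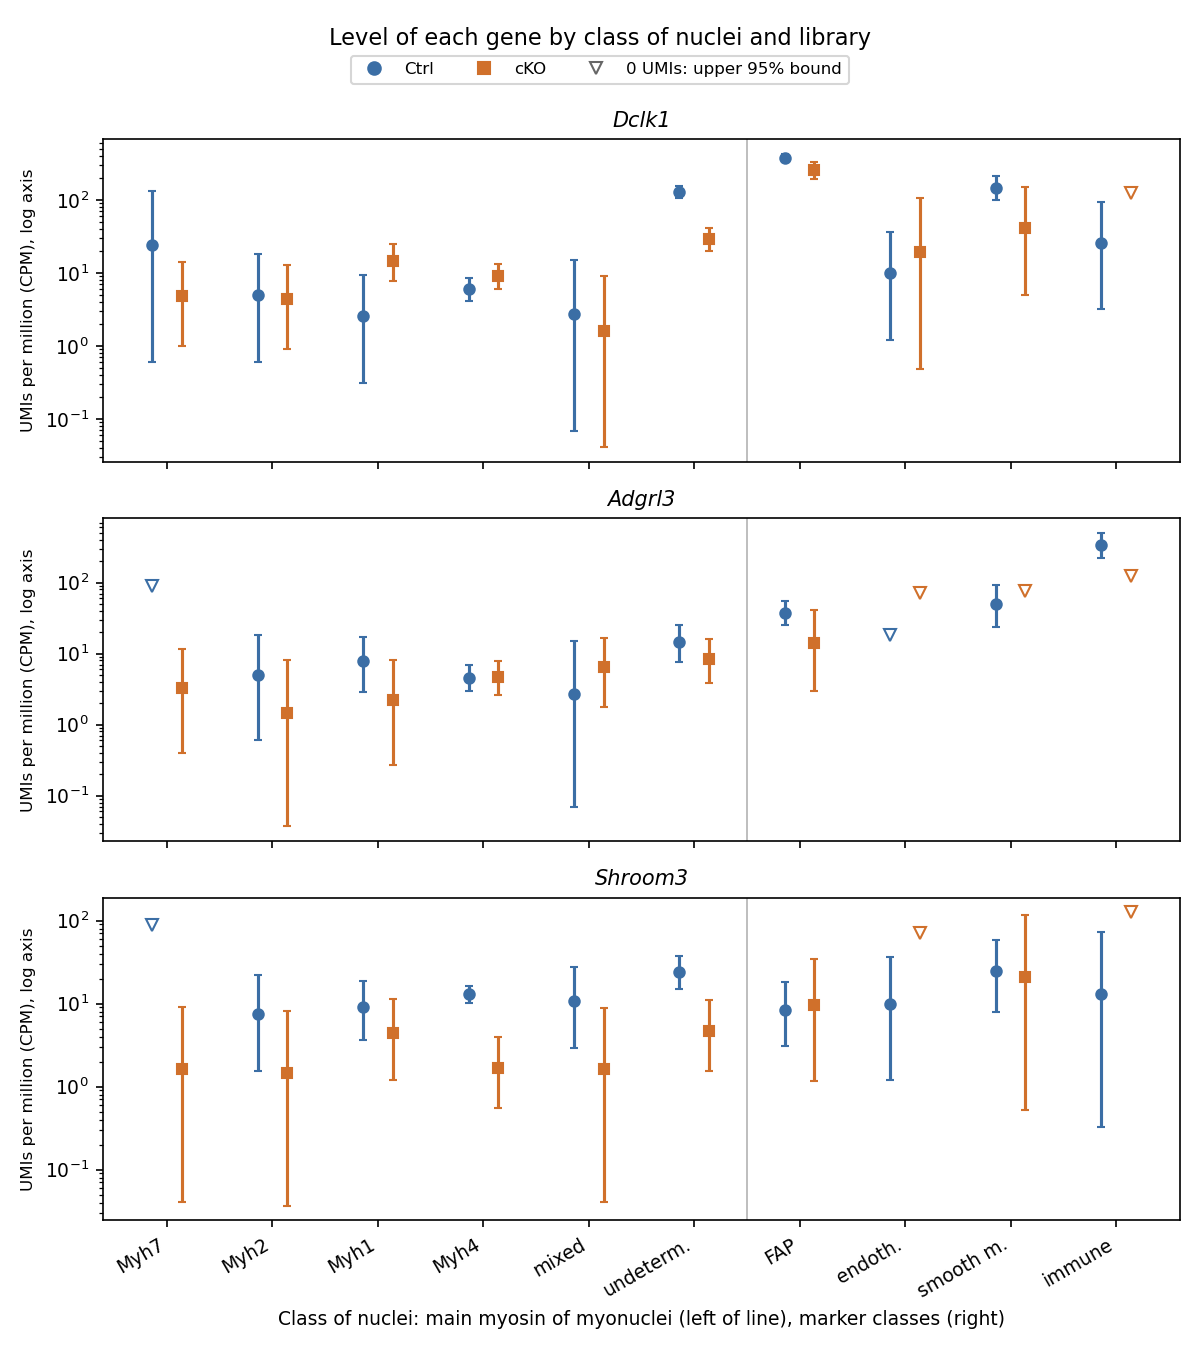
Level of Dclk1, Adgrl3 and Shroom3 (CPM, log axis) in 10 classes of nuclei, with blue circles for Ctrl, orange squares for cKO, bars for exact 95% Poisson intervals of counting error, and open triangles for the upper limit where a class held 0 UMIs. Shroom3 lies at 12.9 CPM in Ctrl against 1.68 CPM in cKO Myh4-main nuclei, while Dclk1 is highest in FAP-marker nuclei (381 and 257 CPM) among the 10 classes in both libraries.

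Of the 10 classes plotted, FAP-marker nuclei had the highest Dclk1 level. They had 272 UMIs in Ctrl and 54 in cKO, 381 CPM (337 to 429) and 257 CPM (193 to 336). The level was 66.6-fold (47.1 to 96.6) that of nuclei with a main myosin in Ctrl and 28.9-fold (19.1 to 43.8) in cKO. At least 1 UMI was found in 136 of 314 Ctrl nuclei (43.3%, 37.8 to 49.0) and 36 of 108 cKO nuclei (33.3%, 24.6 to 43.1), at median depths of 1482.5 and 1417.5 UMIs. Endothelial-marker nuclei, at median depths of 1290.5 and 895 UMIs, were positive in 2 of 88 (2.27%) and 1 of 36, far below the FAP-marker share. The level in FAP-marker nuclei was lower in cKO by a log2 ratio of −0.57 (−1.02 to −0.14). This did not hold with high doublet scores kept (−0.30, −0.72 to 0.09) or at least 5 marker UMIs (−0.39, −0.90 to 0.10). The share differed by −9.98 points (−20.4 to 1.22), and by −5.92 points (−13.9 to 3.46) after thinning to 21.7% and 15.7%, both intervals including 0. More than 3 UMIs were held by 19 Ctrl nuclei and 0 cKO nuclei, with a highest count of 9 and 3. Among 5960 genes in these nuclei, 8.09% were at least 2-fold lower in cKO. Dclk1 was not, and 1056 genes had a lower ratio.

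Nuclei with a main myosin held little Dclk1. Their 37 Ctrl and 46 cKO UMIs gave 5.72 CPM (4.03 to 7.88) and 8.90 CPM (6.52 to 11.9), a log2 ratio of 0.64 (−0.02 to 1.30). Myh4-main nuclei had 32 and 27 UMIs, 6.09 CPM (4.17 to 8.60) and 9.09 CPM (5.99 to 13.2). Positive were 24 Ctrl nuclei (1.26%) and 13 cKO nuclei (0.895%), and after thinning 0.367% and 0.138%. The higher cKO level rested on 1 nucleus with 15 of the 27 UMIs. Without the top nucleus of each library the log2 ratio was −0.34 (−1.46 to 0.69) in place of 0.58 (−0.22 to 1.36). Myh1-main nuclei had 2 and 13 UMIs, 2.58 CPM and 14.5 CPM, a log2 ratio of 2.49 (0.35 to 5.68) that was higher in cKO, and 10 of those 13 were again in 1 nucleus. Myh2-main nuclei had 2 and 3 UMIs and Myh7-main nuclei 1 and 3. In Ctrl, Myh4-main nuclei were 1.48 times (0.573 to 4.87) the other 3 classes, a log2 ratio of 0.57. That ratio depended on the marker rule: it was 1.64 (0.35 to 3.31) with at least 5 marker UMIs and −2.72 (−3.07 to −2.38) with non-fibre marker nuclei kept.

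Among the myosin classes of myonuclei the Dclk1 level was highest in the undetermined one. By nuclei, 25 Ctrl and 18 cKO positive nuclei were undetermined, against 29 and 22 with a main myosin. Undetermined nuclei had 106 UMIs in Ctrl and 31 in cKO, 129 CPM (105 to 156) and 29.1 CPM (19.8 to 41.3), a log2 ratio of −2.14 (−2.77 to −1.55), where 8.11% of 6730 genes were at least 2-fold lower in cKO. Without the 2 highest nuclei of each library, which held 70 of the 106 Ctrl UMIs, the levels were 44.2 and 18.9 CPM, a log2 ratio of −1.23 (−2.09 to −0.40). Many of the positive nuclei held a FAP marker. Of the 25 Dclk1-positive Ctrl nuclei, 17 (68.0%) held a FAP marker UMI, against 74 of 492 nuclei without Dclk1 (15.0%). In cKO the shares were 12 of 18 (66.7%) and 39 of 713 (5.47%). Summed over the 10 FAP markers, undetermined nuclei were at 163 CPM in Ctrl against 67.6 CPM in cKO, Myh4-main nuclei at 47.6 and 20.9 CPM, and FAP-marker nuclei at 5477 and 4324 CPM. The part of these markers in the undetermined Dclk1 level was not tested. Nuclei with no FAP marker UMI held 85 of the 106 Ctrl UMIs, 70 of them in the same 2 nuclei, and 12 of the 31 cKO UMIs. Over all myonuclei, Dclk1 was at 18.8 CPM (144 UMIs) in Ctrl and 11.4 CPM (78 UMIs) in cKO, a log2 ratio of −0.72 (−1.14 to −0.32). It was −0.45 (−0.93 to 0.03) without the highest nucleus of each library, −0.35 (−0.96 to 0.24) without the 4 highest and −1.61 (−3.07 to −0.35) without the highest 1%. The last rule took 1% of all myonuclei, ranked by Dclk1, which 55 of 3023 held in Ctrl and 41 of 3394 in cKO. It removed a large and unequal part of the positive nuclei, so nothing is read from that ratio. After thinning, 27 of 3023 Ctrl myonuclei and 13 of 3394 cKO myonuclei held Dclk1, a difference of −0.51 points (−0.952 to −0.103).

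A few nuclei carried much of the Ctrl count of Dclk1. The highest held 166 of 617 UMIs (26.9%) and the 4 highest held 265 (42.9%). In cKO the highest held 15 of 137 (10.9%). With the 4 highest left out of each library, Dclk1 was at 39.4 CPM in Ctrl against 14.0 CPM in cKO. The highest nucleus held 16513 UMIs in all and was placed among satellite-marker nuclei by 1 UMI of Pax7 and 4 of Calcr. Markers of the FAP, endothelial and smooth muscle lists were in it too, with 2 UMIs of Pdgfra, 1 of Kdr, 1 of Notch3 and 1 of Abcc9. Whether more than 1 nucleus lay behind this barcode was not tested. It also held 441 UMIs of Ttn, the giant sarcomere protein, 13 of the perinatal myosin Myh8, 54 of Ncam1 and 28 of Runx1, genes known to increase in denervated muscle, and 35 of Adgrl3. The next held 48 Dclk1 UMIs among 5289 in all, was undetermined, and had 44 of Ncam1 and 40 of Runx1.

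**Figure D3:**
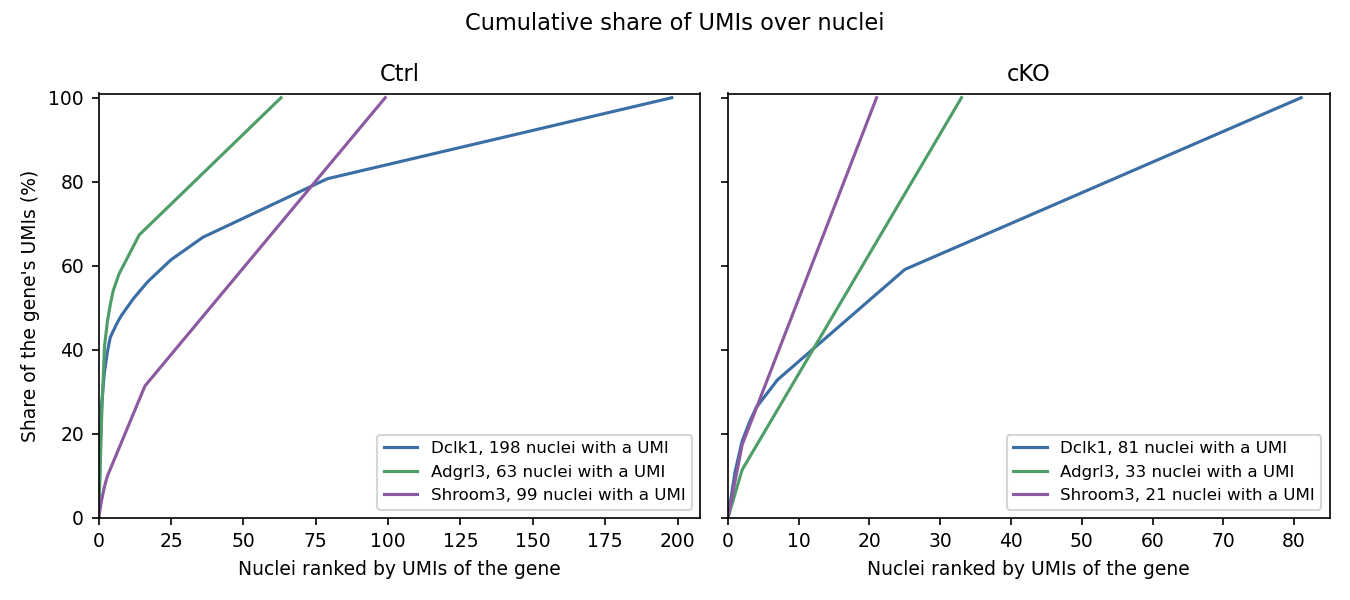
Cumulative share of each member's UMIs (percent, vertical axis) over nuclei ranked by their count of that member, in Ctrl and cKO. In Ctrl the 4 highest nuclei hold 42.9% of Dclk1 and 50.7% of Adgrl3 but 11.6% of Shroom3.

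After these values were seen, nuclei with at least 2 UMIs each of Runx1 and Ncam1 were taken as a class. There were 25 in each library, of which 15 in Ctrl and 24 in cKO were myonuclei, with median depths of 4288 and 4585 UMIs. Dclk1 had 277 UMIs in 10 of the Ctrl nuclei, 44.9% of its Ctrl count and 2076 CPM (1839 to 2335). In cKO it had 11 UMIs in 2 nuclei, 84.1 CPM (42.0 to 150). Without the highest nucleus of each library the levels were 949 CPM and 8.21 CPM. Adgrl3 had 77 UMIs in 8 Ctrl nuclei, 51.3% of its count and 577 CPM (455 to 721), against 1 UMI in cKO, 7.64 CPM (0.193 to 42.6). Shroom3 had 7 UMIs and 1 UMI. The class was built from genes seen in the Ctrl nuclei with most Dclk1 and Adgrl3, so higher Ctrl levels in it were fixed by that choice and nothing is read from them. In neuromuscular junction nuclei Dclk1 was at 314 CPM in Ctrl against 121 CPM in cKO, from 3 and 4 positive nuclei. The highest of these in Ctrl was the undetermined nucleus with 48 Dclk1 UMIs described before, and without the highest nucleus of each library the levels were 104 CPM and 57.8 CPM, a log2 ratio of −0.85 (−1.96 to 0.19) in place of −1.38 (−2.07 to −0.73). In myotendinous junction nuclei Dclk1 was at 113 and 7.35 CPM, from 2 and 1 positive nuclei, and 22 of the 23 Ctrl UMIs lay in 1 undetermined nucleus that ranked 4 in the library.

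Adgrl3 in Myh4-main nuclei did not differ beyond counting error. Myh4-main nuclei had 24 UMIs in Ctrl and 14 in cKO, 4.57 CPM (2.93 to 6.80) and 4.72 CPM (2.58 to 7.91), a log2 ratio of 0.05 (−1.02 to 1.05). Positive were 22 Ctrl nuclei (1.15%) and 14 cKO nuclei (0.964%), and after thinning 0.315% and 0.344%, a difference of 0.0296 points (−0.407 to 0.528). An interval this wide still holds a 2-fold change in either direction. The other 3 main myosin classes together had 8 and 5 UMIs, 6.58 CPM and 2.27 CPM, a log2 ratio of −1.53 (−3.49 to 0.26). Within them, Myh1-main nuclei had 6 and 2 UMIs, Myh2-main nuclei 2 and 1, and Myh7-main nuclei 0 and 2. Undetermined nuclei had 12 UMIs in Ctrl and 9 in cKO, 14.6 CPM and 8.45 CPM (log2 ratio −0.79, −2.21 to 0.59). Over all myonuclei the levels were 5.87 CPM (45 UMIs) and 4.67 CPM (32 UMIs), a log2 ratio of −0.33 (−1.03 to 0.35). With at least 5 marker UMIs the ratio was −1.26 (−1.89 to −0.66), so whether Adgrl3 was lower in myonuclei depended on the marker rule.

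Outside the myonuclei, Adgrl3 was carried by FAP-marker nuclei and by single nuclei of other classes. FAP-marker nuclei had 27 UMIs in Ctrl and 3 in cKO, 37.8 CPM (24.9 to 55.0) and 14.3 CPM (2.95 to 41.7). Positive were 18 nuclei (5.73%) and 2 nuclei (1.85%), and the log2 ratio of −1.40 (−3.77 to 0.30) could not be told from 0. Without the highest nucleus of each library it was −2.70 (−8.07 to −0.07), but the highest cKO nucleus held 2 of the 3 cKO UMIs, so nothing is read from that ratio. In all FAP-marker nuclei the cKO level thus rested on 2 positive nuclei. Adgrl3 was at least 2-fold lower there in point value, as were the 8.09% of genes named above, and 256 genes had a lower ratio. The FAP-marker level was 7.64-fold (4.40 to 13.2) that of main myosin nuclei in Ctrl and 3.89-fold (0.737 to 13.2) in cKO. Endothelial-marker nuclei had 0 UMIs in both libraries, which allows up to 3.41% of the Ctrl nuclei to hold a UMI. Of the remaining Ctrl UMIs, 40 lay in 4 satellite-marker nuclei, 35 of them in the nucleus that also had most Dclk1, and 26 lay in 1 immune-marker nucleus with 26 UMIs of Runx1, 19 of Ncam1 and 37 of Dlg2. The highest nucleus held 35 of 150 UMIs (23.3%) and the 4 highest held 76 (50.7%), whereas no cKO nucleus held more than 2. Without the 4 highest of each library, Adgrl3 was at 8.28 CPM in Ctrl against 4.01 CPM in cKO.

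The difference over all nuclei was split into a part from the share of UMIs that each class held and a part from levels within classes. For Shroom3 the difference was −10.3 CPM, of which −0.597 came from shares and −9.72 (−12.5 to −6.90) from levels. Main myosin nuclei gave −7.18 CPM of it, and Myh4-main nuclei −6.89. For Dclk1 the difference was −49.9 CPM, with −17.5 from shares and −32.4 (−39.2 to −25.6) from levels. FAP-marker nuclei gave −22.9 CPM, mostly through their smaller share (−16.2), other non-fibre nuclei −21.7, mixed and undetermined myonuclei −7.52, and main myosin nuclei 2.22. The satellite-marker class gave −18.5 of the −21.7, and all of its 166 Ctrl UMIs lay in 1 nucleus. For Adgrl3 the difference was −11.9 CPM, with −3.13 from shares and −8.77 (−11.6 to −5.90) from levels. Other non-fibre nuclei gave −8.70 CPM of it, FAP-marker nuclei −2.60 and main myosin nuclei −0.946. Only the Shroom3 difference lay mainly in fibre nuclei of a main myosin.

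**Figure D4:**
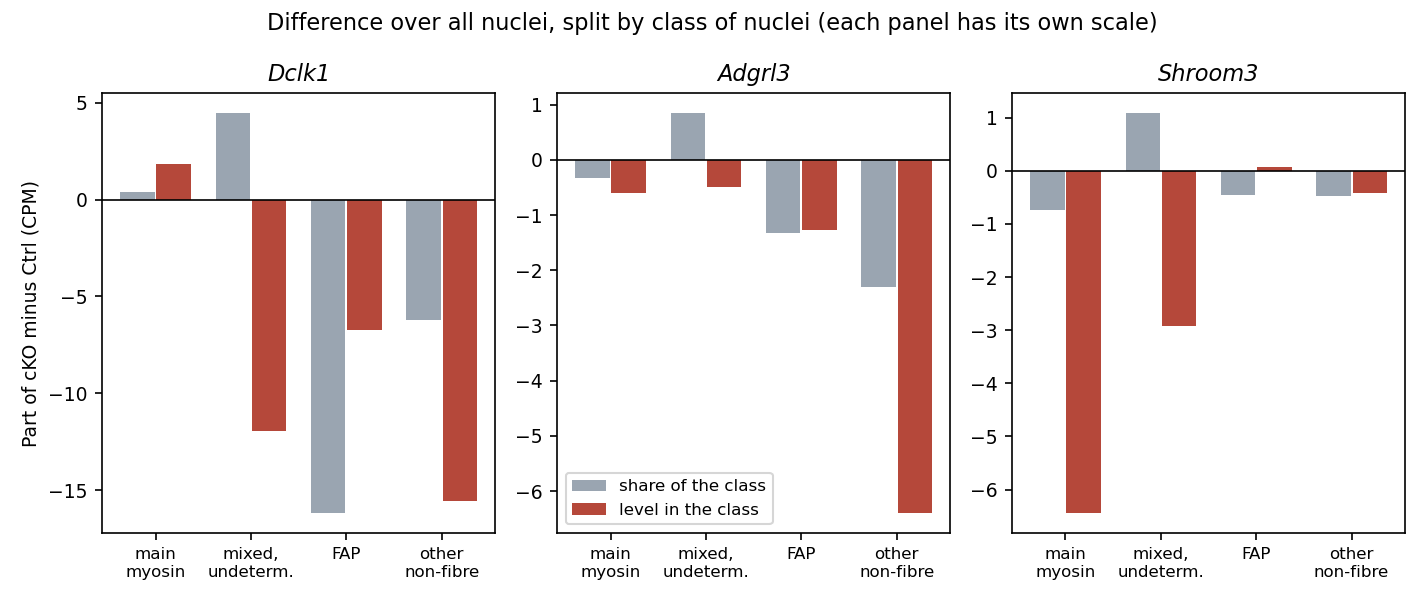
Difference cKO minus Ctrl in CPM over all nuclei, split by class of nucleus into the part from class shares (grey) and the part from levels within classes (red), with a scale of its own for each member. Main myosin nuclei give −7.18 of −10.3 CPM for Shroom3, and FAP-marker and other non-fibre nuclei give −22.9 and −21.7 of −49.9 CPM for Dclk1.

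The genes whose levels were most like each member's were sought over 20 points, 10 classes in 2 libraries, by Pearson's r of log2(CPM + 10). The points share library, depth and base composition, and r is a description. For Dclk1 they were Lhfp (0.912), Kirrel (0.906), Gpc6 (0.890), Gli3 (0.890) and Slit3 (0.888), of which Gli3 is a hedgehog pathway factor and Slit3 a secreted guidance ligand. Their levels followed those of Dclk1 by choice, as with Lhfp at 727 CPM in Ctrl FAP-marker nuclei against 26.5 CPM in Ctrl myonuclei. For Shroom3 they were Bmp8a (0.859), Adra1a (0.848), Cacna2d4 (0.847), Slc2a3 (0.813) and Slc16a9 (0.781). The points include the myonuclear classes of both libraries, so a lower level in cKO myonuclei was fixed by this choice and nothing is read from it, as with Bmp8a, a ligand of the BMP family, at 29.5 CPM in Ctrl against 1.90 CPM in cKO, and Slc2a3, a glucose transporter, at 47.9 and 10.8 CPM. For Adgrl3 they were Wrn (0.842), Runx2 (0.823), Tenm4 (0.767), Galk2 (0.767) and Nfxl1 (0.765), and Tenm4 is a teneurin of the family that latrophilins bind. The members were less like each other, with r of 0.454 for Dclk1 and Adgrl3, 0.502 for Dclk1 and Shroom3, and 0.444 for Adgrl3 and Shroom3.

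Within Ctrl Myh4-main nuclei, transcripts of the 56 nuclei with Shroom3 were set against the 1850 without, each thinned to 500 UMIs. Of 12 genes listed because other results of these libraries named them, 2 had intervals clear of 0 for the log2 ratio, and both are ubiquitin ligases of muscle atrophy. Fbxo32 was at 2608 CPM in nuclei with Shroom3 against 1455 CPM in those without (0.84, 0.48 to 1.18), and Trim63 was at 2572 against 1579 CPM (0.70, 0.34 to 1.05). Nuclei of 1 library are not replicates. In all Ctrl nuclei Dclk1 and Adgrl3 were found together in 18 nuclei, where 3.54 would hold both if the genes were independent, and after thinning in 5, against 0.584. That value takes no account of class: 12 of the 18 were FAP-marker nuclei, against 7.80 there, and 1 was a Myh4-main nucleus, against 0.277. Dclk1 and Shroom3 were together in 7, against 5.56.

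Relatives and partners of the members went both ways in myonuclei. Of all 11511 genes, 20.2% had an interval below a log2 ratio of 0 and 13.4% one above it. Of 10 doublecortin family and microtubule genes, 7 had at least 20 UMIs, 0 lay below and 2 above, Map4 and Mapt (0.16, 0.08 to 0.24; named after its values were seen), with a median of 0.18 beside −0.07 over all genes. Map1a (0.62, 2.09 and 3.21 CPM) and Map4 (0.31, 1618 and 2013 CPM), which bind microtubules, had the highest ratios, though the Map1a interval (−0.38 to 1.65) included 0, and Map1b (0.02) and Map2 (0.09) the lowest. Of 10 genes with an Adgrl symbol or for latrophilin ligands, 9 had enough UMIs, 3 lay below 0 and 1 above, with a median of −0.19. Adgrl4 was at 2.74 CPM in Ctrl against 0.875 CPM in cKO (−1.65, −3.25 to −0.29) and Adgrl1 at 11.4 and 6.13 CPM (−0.89, −1.46 to −0.34). Flrt2, a latrophilin ligand, was at 28.7 and 62.0 CPM (1.11, 0.87 to 1.35), and Adgrl2 had the next ratio (−0.07). Of 12 Shroom and actomyosin genes, 11 had enough UMIs, 1 lay below 0 and 3 above, with a median of −0.11. Myh10, a nonmuscle myosin, was at 37.5 and 102 CPM (1.45, 1.25 to 1.65) and Rock2, a kinase, at 421 and 622 CPM (0.56, 0.50 to 0.63). The lowest ratios were those of the relatives Shroom4 (2.74 and 2.04 CPM) and Shroom2 (5.87 and 4.81 CPM), with intervals that included 0. Shroom1 had 15 UMIs in Ctrl and 1 in cKO, under the minimum of 20. The mix of main myosins differed between the libraries, and some ratios were not the same in Myh4-main nuclei alone. There Myh10 was at 0.70 (0.31 to 1.08), Mapt at −0.07 (−0.19 to 0.04) and Map1b at −0.68 (−1.05 to −0.33). Flrt2 (1.10), Map4 (0.34) and Rock2 (0.37) had intervals above 0 there too.

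Among 12 other genes of the series, chosen with their values known, 8 lay below 0 and 4 above in myonuclei, with a median log2 ratio of −0.73. The widest were Nckap5 (5.11, 20.1 and 693 CPM) and Atf3 (2.09, 18.9 and 80.5 CPM), higher in cKO, and Fkbp5 (−4.51, 511 and 22.5 CPM) and Pde10a (−2.19, 551 and 121 CPM), lower. Fkbp5 is a glucocorticoid-induced cochaperone and Pde10a a phosphodiesterase. In Ctrl Myh4-main nuclei with Sorcs1, 9 Shroom3 UMIs in 166 nuclei gave 14.9 CPM (6.83 to 28.4), against 12.7 CPM (9.66 to 16.4) in the 1740 without it, so Shroom3 did not differ between them beyond counting error.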

How the data were processed

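snRNA-seq was run on 1 Ctrl and 1 cKO library of GP muscle. The authors deposited raw UMI counts per gene and barcode, made on mm10 with Cell Ranger 3.1.0 per the submitters' processing notes. The study's methods state default parameters for this step. The handling of intronic reads and the annotation release, which could change the counts of such long genes, are not named in the sources used here. The matrices held 3863 Ctrl and 3994 cKO barcodes, 5 of them in both, and nuclei with under 100 genes, under 500 UMIs or over 10% mitochondrial UMIs were removed, leaving 3833 and 3908. Scrublet (scanpy 1.11.5) marked 5 and 2 nuclei at its own threshold and had not worked, so the 8% with the highest scores were removed.

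A non-fibre class needed at least 3 UMIs of at least 2 of its markers and more UMIs than any other list. UMIs were summed per class, with exact Poisson intervals for CPM, Clopper-Pearson intervals for shares and exact conditional intervals for ratios (scipy 1.17.1 and numpy 2.4.6 in Python 3.11.15, with pandas 2.3.3 and matplotlib 3.10.9), and the steps were tested on simulated data. Intervals for a difference of shares joined the Clopper-Pearson limits of both shares by the root of summed squares. Those of the split by class were a normal approximation, in which a class with 0 UMIs added no variance. A count of 0 was given the limit of 3 counts. No test was run, as each group is 1 library. The members and lists were chosen with earlier results of these data known. Listed genes were named where they held at least 20 UMIs and one of the 2 largest or 2 smallest ratios. A planned ranking of genes in nuclei with a member is not reported, because its minimum count in those nuclei fixed high ratios. Like genes needed at least 200 UMIs and classes at least 10 nuclei. Of the gene IDs, 27645 were in GENCODE M21. Alternatives covered filters, thresholds for myosin and markers, doublets, thinning, the scale and single nuclei.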

Additional observations from a re-analysis of the deposited data

How the results depend on the processing

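Of 138 alternatives for levels, ratios and shares, 119 left the value within the counting interval of the reported one and 19 moved it further. Calls clear of 0 were lost for Dclk1 in all myonuclei, in FAP-marker nuclei and in neuromuscular junction nuclei and for the thinned Shroom3 share, as given beside those results. Shroom3 moved in 1 of 44 alternatives: without thinning its share in Myh4-main nuclei differed by −2.59 points. Keeping non-fibre marker nuclei among the myonuclei moved the log2 ratio cKO over Ctrl to −1.86 (Dclk1, all myonuclei), −0.86 (Dclk1, Myh4-main) and −1.79 (Adgrl3, all myonuclei), and the Ctrl ratio of Myh4-main over the other 3 classes to −2.72 (Dclk1) and −2.29 (Adgrl3), all clear of 0. With at least 5 marker UMIs, Dclk1 in Myh4-main nuclei was at −0.47, its part within classes at −19.8 CPM, Adgrl3 in all myonuclei at −1.26, clear of 0, and the Ctrl ratio of Dclk1 at 1.64, clear of 0 in the other direction from −2.72. Reading the myosin after thinning gave −0.54 for Dclk1 in Myh4-main nuclei and 1.39 for the Ctrl ratio of Adgrl3, and averaging CPM nucleus by nucleus gave −0.62 for Dclk1 in Myh4-main nuclei. Without the 1% of nuclei with most UMIs of the gene, Dclk1 in all myonuclei was at −1.61 and the Ctrl ratio of Adgrl3 at −2.71, and in 8 other cases a library kept 0 UMIs and no ratio was had, as for Dclk1 in myotendinous junction nuclei without the highest nucleus. This 1% was of all nuclei of a class, so it took out a large and unequal part of the nuclei with the gene, and nothing is read from these ratios. Chosen after seeing the data, leaving out the top nucleus gave −1.58 for Dclk1 over all nuclei and −0.34 in Myh4-main nuclei, and leaving out the top 4 gave −1.49 for Dclk1 and −1.05 for Adgrl3 over all nuclei, and leaving out the top 2 gave −1.23 for Dclk1 in undetermined nuclei. Genes at least 2-fold lower in cKO myonuclei numbered 505 of 11511, 260 of 9298 with at least 50 UMIs, 1287 of 16076 with 1 UMI in each library, and 398 of 11511 when totals left out mitochondrial genes and Malat1. The cause of these shifts was not tested beyond the nuclei or genes each alternative takes out.

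The Ctrl Myh7-main class held 20 nuclei. No paired analysis was possible because each group is 1 library, and for the same reason leaving out a replicate was not an option.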
